A study of Mus musculus with 4 samples.

Results

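Genes of the neutrophil granules were followed in progenitors of the blood sorted from foetal liver of the mouse. The set held 10 genes, 5 grouped as primary (azurophil) granule genes (Elane, Ctsg, Prtn3, Mpo and Ms4a3) and 5 late genes (Ltf, Ngp, Camp, S100a8 and S100a9). All probe sets annotated to exactly 1 of these genes were taken, which gave 10 of the 45101 probe sets on the array, 1 for each gene, and 10 of the 18193 genes with a probe set of their own. No probe set was shared between a member and another gene, and no gene was lost to a filter on level. The genes were not chosen by a threshold on measured values.

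The cells came from female embryos of the Hes1 GFP/WT genotype at E13.5, and all were LSK cells (no lineage markers, with cKit and Sca1 on the surface), a population in which stem cells and multipotent progenitors are found. All groups carry the same reporter at 1 allele of Hes1, a repressor that Notch signalling switches on, and no untreated or reporter-free sample was analysed here. The sorted cells were labelled HES1-GFP positive (1 array) or HES1-GFP negative (3 arrays, replicates 1 to 3). Separate litters or sorts are not stated for the replicates, whose spread and p-values may therefore be technical, and the antibodies of the lineage selection are not named.

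Neutrophil precursors make their granules in waves, and each wave holds the proteins transcribed while it forms. Primary granule genes, which encode the elastase-like serine proteases and myeloperoxidase, are switched on in granulocyte and monocyte progenitors and promyelocytes. Secondary (specific) granule genes follow in myelocytes, after the primary genes begin to be shut off. S100a8 and S100a9 encode the subunits of calprotectin, which is mostly cytosolic and abundant in maturing neutrophils, and they stand here with the late genes. Ms4a3, a membrane protein that marks granulocyte and monocyte progenitors, stands here with the primary genes.

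Hes1 itself went against the labels. Its log2 intensity was 6.57 in the HES1-GFP positive array, against 8.78, 9.07 and 6.70 in negative replicates 1, 2 and 3. Directions below are therefore those of the positive-labelled array. Median probe set intensities were nearly equal, from 74.8 to 76.1 on the linear scale. Of the LSK markers, Kit, the receptor used in the sort, was at 10.13 in the positive-labelled array. It was at 9.90, 9.72 and 9.68 in negative replicates 1, 2 and 3. The difference from the negative mean was 0.37 for this probe set of Kit and 0.07 for its other one. Flt3, a receptor of early progenitors, went the other way, at 11.07 in the positive-labelled array against 12.12, 11.95 and 11.63 in the negative replicates. Of the 8 measured LSK markers 4 were above the negative range in the positive-labelled array, 3 within it and 1 below. Among all genes 23.6% were above it. Ly6a, which encodes Sca1, had no probe set of its own. Itgam, a surface integrin of mature myeloid cells, was at 6.18 in the positive-labelled array, against 4.71, 5.58 and 6.24 in the negative replicates. These values were near or under the median level of all probe sets, 6.23. Of 11 listed lineage markers 5 were measured, Itgam among them. In the positive-labelled array 0 lay above the negative range, 3 within it and 2 below (Cd3e and Cd8a). Their median difference from the negative mean was -0.26.

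The 10 granule genes split the arrays in the same way. Each gene was high in the positive-labelled array and in negative replicate 3, and lower in negative replicates 1 and 2. The steps were wide for 4 of the 5 primary granule genes and narrower for Mpo and the late genes. None of them passed the test of positive against negative, and the negative arrays themselves differed by as much.

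Among the primary granule serine proteases, Ctsg (cathepsin G, a chymotrypsin-like protease) was at a log2 intensity of 12.12 in the positive-labelled array, against 8.82, 8.37 and 12.05 in negative replicates 1, 2 and 3. The positive-labelled array was the highest, by 0.07 over replicate 3. Elane (neutrophil elastase) was at 11.65 in the positive-labelled array, against 8.26, 8.66 and 11.51 in the negative replicates. Prtn3 (proteinase 3) was at 12.20 in the positive-labelled array, against 9.75, 9.93 and 12.24 in the negative replicates. Prtn3 in the positive-labelled array lay inside the range of the negative arrays, just under replicate 3. On the linear scale the intensity of Ctsg was 4463 in the positive-labelled array and 453, 330 and 4237 in the negative replicates. Ctsg was thus 9.84 times and 13.53 times as bright in the positive-labelled array as in replicates 1 and 2, and 1.05 times as bright as in replicate 3.

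Ms4a3 and Mpo marked the extremes of the primary set. Ms4a3, a membrane protein that marks granulocyte and monocyte progenitors in mouse, was at 10.43 in the positive-labelled array, against 6.48, 7.68 and 10.62 in the negative replicates. It had the widest range over the 4 arrays, 4.14 log2 units, and was the member in which replicates 1 and 2 lay furthest apart, at 1.20. Mpo (myeloperoxidase, which makes hypochlorous acid from hydrogen peroxide) was at 13.27 in the positive-labelled array, against 12.42, 12.42 and 13.24 in the negative replicates. Its range of 0.85 was the narrowest of the primary set, and the positive-labelled array stood 0.02 above replicate 3.

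**Figure D1:**
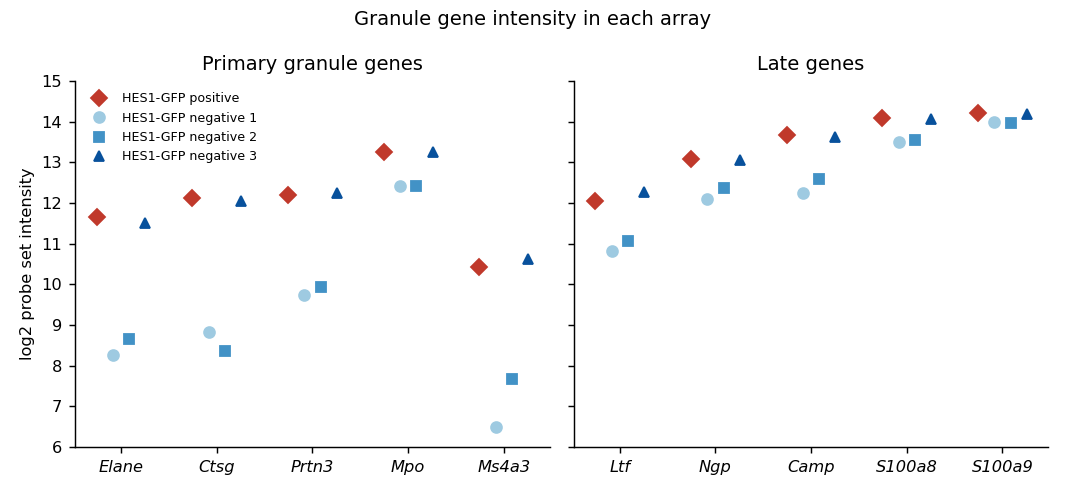
Log2 probe set intensity (y axis) of each granule gene (x axis) in the array labelled HES1-GFP positive and the 3 negative arrays, with 1 point per array and no error bars. In each gene the positive array and negative replicate 3 lie together above negative replicates 1 and 2. The range over the 4 arrays is widest in Ms4a3 (4.14) and narrowest in S100a9 (0.25).

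The 250 bases before the start sites of 8 members are shown, the 5 primary genes and 3 late genes, to show where the motif letters lie relative to the start. They are from the RefSeq promoter table (GRCm38.p6), which held all 10 genes, and are written on the gene's own strand. Capitals mark matches to AGGAAGT (a PU.1 core), AACGG (MYB), TGTGGT (RUNX) and TTGCNNAA (C/EBP), each searched on both strands, and to TATAA on the gene's strand only. Matches of different motifs did not overlap in these sequences. The motif letters were chosen after these promoters had been seen, so the counts below describe these genes only and are no evidence of a difference between primary and late genes, which was not tested. Elane lies at chr10:79886062-79886311, plus strand, and Prtn3, the gene next to it, at chr10:79879417-79879666, plus strand. Ctsg lies at chr14:56102575-56102824, minus strand, Mpo at chr11:87793534-87793783, plus strand, and Ms4a3 at chr19:11640852-11641101, minus strand. Of the late genes, Ltf lies at chr9:111019042-111019291, plus strand, Ngp at chr9:110419558-110419807, plus strand, and S100a8 at chr3:90668821-90669070, plus strand.
Elane: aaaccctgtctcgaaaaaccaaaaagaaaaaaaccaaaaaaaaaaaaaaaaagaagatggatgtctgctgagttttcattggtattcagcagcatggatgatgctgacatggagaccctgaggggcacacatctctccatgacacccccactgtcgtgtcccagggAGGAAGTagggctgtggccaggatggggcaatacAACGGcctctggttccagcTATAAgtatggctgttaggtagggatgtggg
Prtn3: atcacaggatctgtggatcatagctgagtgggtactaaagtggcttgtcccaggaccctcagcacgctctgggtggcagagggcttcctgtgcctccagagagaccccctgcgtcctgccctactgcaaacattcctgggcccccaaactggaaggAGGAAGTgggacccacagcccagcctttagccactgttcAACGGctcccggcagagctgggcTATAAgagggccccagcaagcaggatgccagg
Ctsg: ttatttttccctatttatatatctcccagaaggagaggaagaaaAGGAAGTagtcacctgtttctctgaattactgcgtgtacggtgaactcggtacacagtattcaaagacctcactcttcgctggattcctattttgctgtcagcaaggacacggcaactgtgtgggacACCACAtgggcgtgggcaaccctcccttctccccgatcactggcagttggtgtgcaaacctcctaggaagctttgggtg
Mpo: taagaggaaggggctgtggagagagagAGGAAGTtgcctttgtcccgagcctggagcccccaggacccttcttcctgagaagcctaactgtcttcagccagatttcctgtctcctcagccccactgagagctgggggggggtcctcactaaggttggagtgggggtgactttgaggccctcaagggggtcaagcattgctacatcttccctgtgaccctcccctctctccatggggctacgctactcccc
Ms4a3: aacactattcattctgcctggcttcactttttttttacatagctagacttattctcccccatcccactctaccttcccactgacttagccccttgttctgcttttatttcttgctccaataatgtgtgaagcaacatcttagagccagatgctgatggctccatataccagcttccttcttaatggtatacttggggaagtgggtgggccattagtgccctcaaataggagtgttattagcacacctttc
Ltf: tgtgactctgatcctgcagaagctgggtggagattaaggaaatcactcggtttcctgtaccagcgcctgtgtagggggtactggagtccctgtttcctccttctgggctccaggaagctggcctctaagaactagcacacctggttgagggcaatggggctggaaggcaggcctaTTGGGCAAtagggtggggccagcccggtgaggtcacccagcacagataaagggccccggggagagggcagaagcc
Ngp: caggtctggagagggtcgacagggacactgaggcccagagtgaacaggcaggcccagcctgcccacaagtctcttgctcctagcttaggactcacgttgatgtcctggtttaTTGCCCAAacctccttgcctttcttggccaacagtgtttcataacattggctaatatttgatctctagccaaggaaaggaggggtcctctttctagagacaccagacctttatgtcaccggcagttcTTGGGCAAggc
S100a8: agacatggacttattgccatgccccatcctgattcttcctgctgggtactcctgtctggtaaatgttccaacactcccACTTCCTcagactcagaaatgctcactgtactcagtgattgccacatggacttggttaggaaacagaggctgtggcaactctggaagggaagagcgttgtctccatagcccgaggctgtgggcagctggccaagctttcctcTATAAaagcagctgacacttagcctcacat

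PU.1 and C/EBP factors are regulators of myeloid genes. AGGAAGT was found before 4 of the 5 primary genes (Elane, Prtn3, Ctsg and Mpo) and before 1 of the 5 late genes (S100a8), and 7.69% of the 32851 promoters of the table hold it. Elane and Prtn3 shared an order of matches. AGGAAGT began 84 bases before the start in Elane and 94 bases before it in Prtn3, AACGG followed at 50 and 55 bases, and TATAA at 31 and 32 bases. AACGG was found before 2 primary genes and 0 late genes, and 14.5% of all promoters hold it. TATAA was found before 2 primary genes and 1 late gene (S100a8, 30 bases before the start), and 16.0% of all promoters hold it. TTGCNNAA was found before 3 of the 5 late genes (Ltf, Ngp and S100a9) and 0 of the primary genes, and 9.56% of all promoters hold it. TGTGGT was found before Ctsg and S100a9, and 14.0% of all promoters hold it. Ms4a3 and Camp held none of the 5 motifs in this window. These matches describe letters, and no binding was measured.

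Of the late genes, those of the specific granules showed narrower steps. Ltf (lactoferrin, an iron-binding protein) was at 12.04 in the positive-labelled array, against 10.81, 11.06 and 12.26 in negative replicates 1, 2 and 3. Camp (the cathelicidin antimicrobial peptide precursor) was at 13.68 in the positive-labelled array, against 12.26, 12.58 and 13.62 in the negative replicates. Ngp (neutrophilic granule protein, related to cystatins and cathelicidins) was at 13.08 in the positive-labelled array, against 12.10, 12.36 and 13.05 in the negative replicates. Camp and Ngp were highest in the positive-labelled array, by 0.06 and 0.03 over replicate 3, while Ltf was highest in replicate 3. Camp was 2.68 times as bright in the positive-labelled array as in replicate 1 and 2.14 times as bright as in replicate 2.

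The calprotectin genes differed least between arrays. S100a8 was at 14.09 in the positive-labelled array, against 13.505, 13.56 and 14.08 in negative replicates 1, 2 and 3. S100a9 was at 14.22 in the positive-labelled array, against 13.99, 13.96 and 14.20 in the negative replicates. Both were highest in the positive-labelled array, by 0.01 over replicate 3 for S100a8 and 0.02 for S100a9. S100a9 was 1.17 times and 1.19 times as bright in the positive-labelled array as in replicates 1 and 2, the narrowest step of the 10 genes. The S100a8 probe set is of a kind whose probes can match more than 1 transcript.

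Against the mean of the negative arrays, the difference was 2.38 log2 units for Ctsg (SE 1.67), 2.17 for Elane (SE 1.47), 2.17 for Ms4a3 (SE 1.77), 1.56 for Prtn3 (SE 1.16) and 0.57 for Mpo (SE 0.43). The negative means were 9.75 ± 2.01, 9.48 ± 1.77, 8.26 ± 2.13, 10.64 ± 1.39 and 12.69 ± 0.48 in that order (SD, n = 3). Among the late genes it was 0.86 for Camp (SE 0.61), 0.66 for Ltf (SE 0.67), 0.58 for Ngp (SE 0.44), 0.38 for S100a8 (SE 0.32) and 0.16 for S100a9 (SE 0.21). Their negative means were 12.82 ± 0.71, 11.38 ± 0.78, 12.50 ± 0.49, 13.71 ± 0.32 and 14.05 ± 0.13 (SD, n = 3). Among all genes limma called 0 higher (0.0%) and 0 lower (0.0%) at an adjusted p under 0.05, so 0 of the 10 members passed, with a limma adjusted p of 1.00 for each. The lone positive-labelled array was assumed to vary like the negative arrays. Before adjustment 734 genes (4.03%) had a limma p under 0.05, 0 of them members, and 1479 genes did without negative replicate 3. The members' unadjusted limma p ran from 0.215 to 0.485. With 4 arrays the smallest one-sided p of an exact permutation is 0.25.

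The positive-labelled array lay above all 3 negative arrays in 7 of the 10 genes (Elane, Ctsg, Mpo, Ngp, Camp, S100a8 and S100a9) and below them in 0, where 23.6% of all genes lay above. The margin over the highest negative array was at most 0.14, in Elane. All 10 genes were within 0.25 log2 units of negative replicate 3, a bound set after the values had been seen, as were 56.5% of all genes. The largest such difference was in Ltf, at -0.22. The median difference from the negative mean was 2.17 for the primary genes and 0.58 for the late genes, beside -0.0012 for all genes. Without negative replicate 1 these medians were 1.28 for the primary and 0.38 for the late genes.

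Taken pair by pair, the differences depended on which negative array was used. Against negative replicate 1, 6 of the 10 genes were at least 1 log2 unit higher in the positive-labelled array (5.38% of all genes), namely 4 primary genes with Ltf and Camp. Against negative replicate 2 the count was 5, the same 4 primary genes with Camp (5.62% of all genes), and against replicate 3 it was 0 (3.2% of all genes). These comparisons share the positive-labelled array. Within the negative group, replicate 3 was at least 1 log2 unit above replicate 1 in 6 of the 10 genes (5.49% of all genes) and above replicate 2 in 6 (5.8% of all genes). Replicate 2 was that far above replicate 1 in 1 gene, Ms4a3 (4.25% of all genes).

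**Figure D2:**
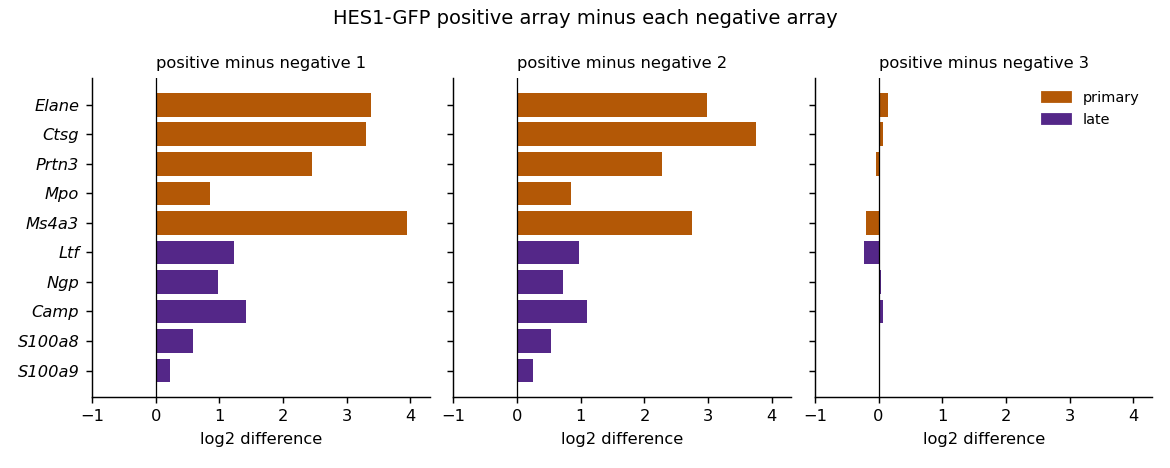
Log2 difference (x axis) of the array labelled HES1-GFP positive minus each negative array, with 1 bar per granule gene and no error bars. Against negative replicates 1 and 2 all 10 genes were higher, by up to 3.95 log2 units in Ms4a3, while against replicate 3 the differences ran from -0.22 to 0.14.

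The contrast of primary with late genes was formed in each array from deviations of each gene from its own mean over the 4 arrays, since levels of different probe sets cannot be compared. The 5 primary genes deviated on average by 1.33 log2 units in the positive-labelled array and by -1.46, -1.19 and 1.33 in negative replicates 1, 2 and 3. The 5 late genes deviated by 0.40 in the positive-labelled array and by -0.49, -0.32 and 0.42 in the negative replicates. Primary minus late was 0.93 in the positive-labelled array and -0.97, -0.88 and 0.91 in the negative replicates. The mean deviation of the primary genes was thus larger in size than that of the late genes, with the same sign, in every array. This holds for the members only. Other listed primary granule genes had a median range of 0.70 log2 units, and other secondary and tertiary granule genes one of 1.98, the reverse order. The contrast in the positive-labelled array exceeded the negative mean of -0.31 ± 1.06 (SD, n = 3) by 1.24 log2 units. It exceeded replicate 1 by 1.90, replicate 2 by 1.81 and replicate 3 by 0.02. The positive-labelled array was thus above all 3 negative arrays, but close to replicate 3.

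**Figure D3:**
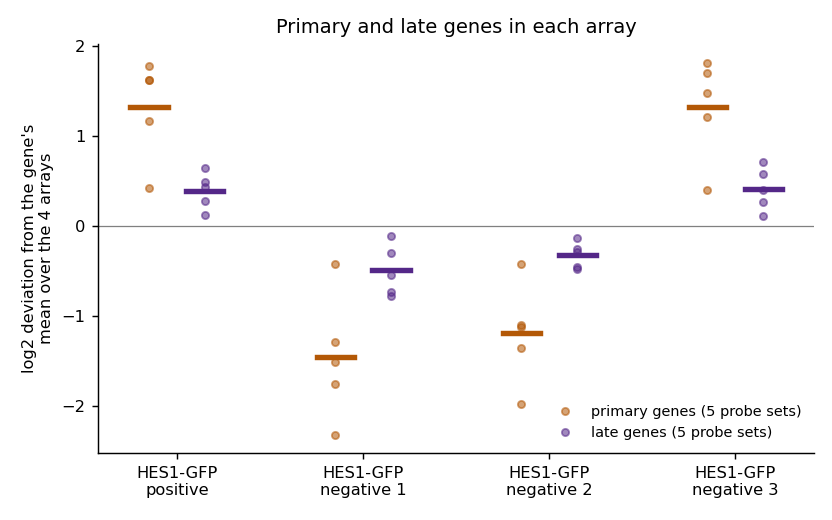
Log2 deviation of each gene from its own mean over the 4 arrays (y axis), by array (x axis). Points are genes and thick bars the mean of the 5 primary or 5 late genes, with no error bars. In the array labelled HES1-GFP positive and in negative replicate 3 the primary mean lies at 1.33 and the late mean at 0.40 and 0.42. In negative replicates 1 and 2 both lie below 0.

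Probe set brightness differed between the classes along with the size of the step. Over the 10 genes the mean log2 intensity and the range over the 4 arrays had a Pearson correlation of -0.96 and a Spearman correlation of -0.95 (n = 10 genes, which share the 4 arrays). The brightest value on any array was 14.74, and S100a9 lay 0.38 log2 units under the maximum of the positive-labelled array. The part of brightness in the contrast was not tested. Among 477 genes with a mean of at least 12 log2 units the median range was 0.22, and 5 genes had a range of at least 1. Camp was 1 of these, with 1.42, and the only one that was higher in the positive-labelled array than in negative replicates 1 and 2. The others were Chchd10, Csf1r, Itga4 and Selenop, named after their values were seen. Among the 115 genes with a mean of at least 13, of median range 0.12, the 90th percentile of the range was 0.29, which Camp and S100a8 (0.58) exceeded and S100a9 (0.25) did not. Ranges of at least 1 were found in 6 of the 10 members and in 24.8% of all genes.

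**Figure D4:**
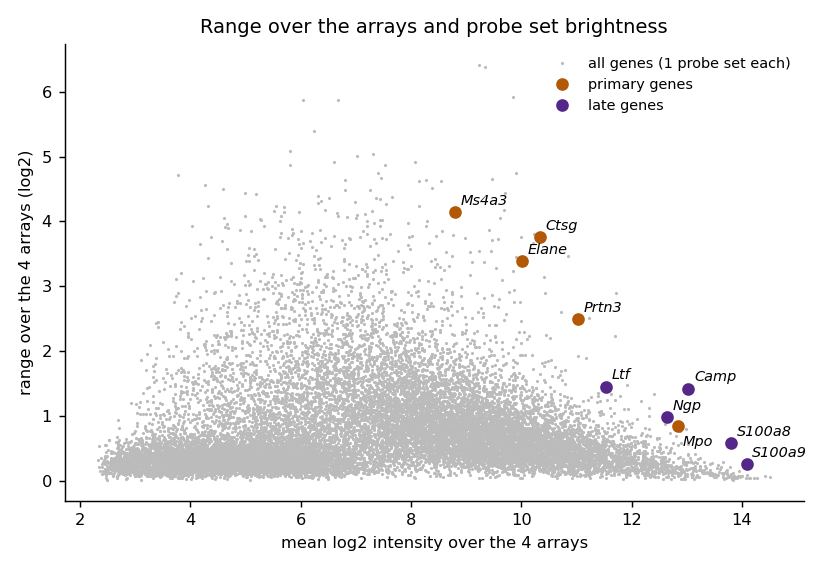
Range over the 4 arrays in log2 units (y axis) against the mean log2 intensity (x axis) for all 18193 genes in grey, with the primary and late granule genes coloured and named. The members run from Ms4a3, the dimmest with a range of 4.14, to S100a9, the brightest with a range of 0.25.

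On the linear scale the order of the class medians depended on the negative array used. The late genes had the larger median step against replicates 1 and 3, and the primary genes against replicate 2. The positive-labelled array exceeded negative replicate 1 by 1289 to 4372 intensity units over the primary genes (median 3857) and by 2413 to 8223 over the late genes (median 4269). Against replicate 2 the medians were 3740 for the primary and 3401 for the late genes, and against replicate 3 they were 151 and 199. Camp had the largest linear step, with 13116 in the positive-labelled array, against 4893, 6130 and 12559 in negative replicates 1, 2 and 3. Linear steps depend on how strongly each probe set responds, and the classes are therefore compared here on log2 values.

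Other genes of primary granules showed smaller steps than the members. Of 11 listed, 8 were measured. In the positive-labelled array 1 lay above the negative range, 7 within it and 0 below, beside 23.6% of all genes above. The median difference from the negative mean was 0.24, and 0 passed limma. Their median range over the 4 arrays was 0.70 log2 units, beside 3.39 for the primary members. Cst7 (cystatin F, an inhibitor of granule cathepsins) was at 10.07 in the positive-labelled array, against 8.93, 8.87 and 10.17 in negative replicates 1, 2 and 3. Lyz2 (lysozyme) was at 12.98 in the positive-labelled array, against 12.41, 12.34 and 13.08 in the negative replicates, and Nkg7, a granule membrane protein, at 9.79 in the positive-labelled array against 8.90, 9.55 and 9.81 in the negative replicates. In these 3 genes the positive-labelled array and replicate 3 were the highest. Ctsc, the peptidase that activates Elane, Ctsg and Prtn3 by removing a dipeptide, was at 10.37 in the positive-labelled array, against 10.83, 10.98 and 10.09 in the negative replicates, the opposite order. Its 2 other probe sets did not show that order, with 7.28 in the positive-labelled array against 7.37, 7.75 and 8.68 in the first and 6.85 against 8.47, 6.42 and 8.64 in the next. Srgn (serglycin, the proteoglycan that packs granule proteases) stayed within a range of 0.07 and Gusb (a lysosomal glucuronidase) within 0.08. The other probe set of Gusb was at 9.97 in the positive-labelled array, against 9.39, 8.74 and 9.43 in the negative replicates.

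Other secondary and tertiary granule genes had wider steps than the late members. Of 20 listed, 18 were measured. In the positive-labelled array 7 lay above the negative range, 10 within it and 1 below, beside 23.6% of all genes above. The median difference was 1.08, and 0 passed limma. Their median range was 1.98, beside 0.98 for the late members. Fcnb (ficolin B, a lectin of the complement system) was at 11.74 in the positive-labelled array, against 9.96, 8.59 and 11.35 in negative replicates 1, 2 and 3. Chil3 (a chitinase-like protein) was at 11.15 in the positive-labelled array, against 8.06, 8.24 and 11.14 in the negative replicates. Adam8 (a membrane metalloprotease) was at 7.97 in the positive-labelled array, against 5.18, 5.97 and 7.10 in the negative replicates. These 3 genes were highest in the positive-labelled array. Mmp9 (gelatinase B) was at 9.37 in the positive-labelled array, against 6.94, 7.21 and 9.42 in the negative replicates, and its second probe set, at 8.55 in the positive-labelled array against 7.17, 7.70 and 8.76 in the negative replicates, had the same order. Itgb2, the common chain of leukocyte integrins, stayed within a range of 0.31, and Cybb, the catalytic chain of the phagocyte oxidase, within 0.54. The other probe sets of Cybb varied more. One was at 10.23 in the positive-labelled array, against 10.46, 9.66 and 10.02 in the negative replicates. The next was at 8.90, against 8.37, 8.28 and 9.51, with the positive-labelled array and replicate 3 the highest.

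Among regulators of granulocyte formation, some differed widely between arrays and others little. Of 18 listed, 17 were measured (all but Cebpe, a factor of the specific granule stage). In the positive-labelled array 6 lay above the negative range, 9 within it and 2 below, beside 23.6% of all genes above. The median difference was 0.23, and 0 passed limma. Their median range was 0.77, beside 0.54 for all genes. A range of at least 1 was found in 6 of the 17 (Cebpa, Klf4, Ets1, Csf3r, Csf1r and Il6ra), beside 24.8% of all genes. Klf4 and Il6ra, like Flt3 above, were named after their values were seen. Csf3r, the receptor of granulocyte colony-stimulating factor, was at 9.09 in the positive-labelled array, against 7.65, 7.42 and 9.38 in negative replicates 1, 2 and 3. Cebpa, a transcription factor needed for granulocyte progenitors, was at 9.55 in the positive-labelled array, against 8.55, 8.48 and 9.85 in the negative replicates. Both were higher in the positive-labelled array and replicate 3 than in replicates 1 and 2. Csf1r, the M-CSF receptor of the macrophage lineage, was at 11.63 in the positive-labelled array, against 12.88, 12.97 and 12.13 in the negative replicates, and Ets1, a transcription factor of lymphoid cells, at 8.60 in the positive-labelled array against 10.70, 10.55 and 8.29 in the negative replicates. Both were lower in the positive-labelled array than in replicates 1 and 2, also in their other probe sets. Runx1 and Cbfb, the subunits of core-binding factor, stayed within 0.21 and 0.19. The other probe sets of Runx1 differed from the negative mean by -0.72 to 0.38.

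Genes of mature neutrophils were mixed. Of 15 listed, 11 were measured, and 4 (Ly6g, Fpr1, Stfa1 and Stfa2) had no probe set of their own. In the positive-labelled array 2 lay above the negative range, 8 within it and 1 below, beside 23.6% of all genes above. The median difference was 0.41 and the median range 0.99, and 0 passed limma. Ifitm6, an interferon-induced membrane protein, was at 11.17 in the positive-labelled array, against 9.13, 9.01 and 11.24 in negative replicates 1, 2 and 3. Mxd1, a partner of MAX, was at 10.38 in the positive-labelled array, against 9.16, 10.05 and 10.58 in the negative replicates. Itgb2l, an integrin chain, was at 8.09 in the positive-labelled array, against 7.12, 7.71 and 8.66 in the negative replicates, and Lrg1, a secreted glycoprotein, at 6.97 in the positive-labelled array against 6.26, 6.26 and 7.64 in the negative replicates. In these 4 genes replicate 3 was the highest, and another probe set of Mxd1 differed from the negative mean by -0.10. The other probe sets of Itgb2l did not have replicate 3 highest. One was at 5.65 in the positive-labelled array, against 4.61, 4.70 and 5.50 in the negative replicates. The next was at 4.76, against 4.79, 4.79 and 4.57. Trem1 (an activating receptor) and Ccl6 (a chemokine) stayed within 0.60 and 0.69, and the other probe set of each differed from the negative mean in the opposite direction.

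**Figure D5:**
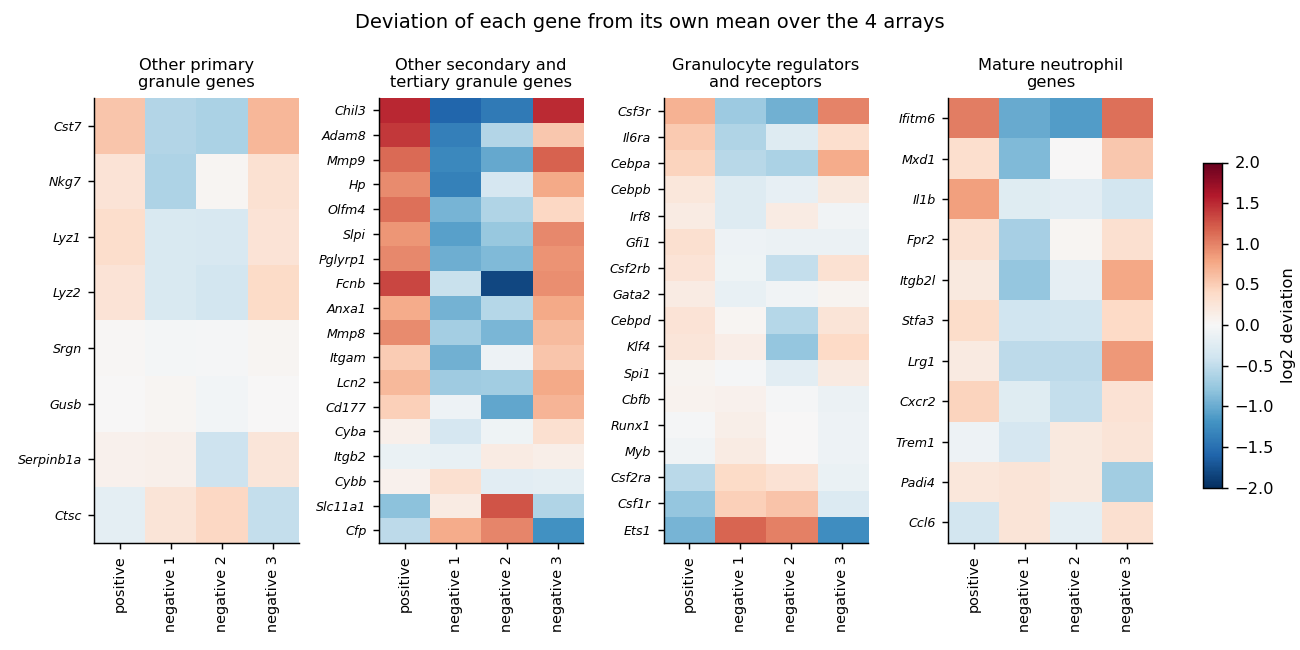
Log2 deviation of each gene from its own mean over the 4 arrays (colour), by array (columns) and gene (rows, ordered by positive minus negative replicate 1), in 4 gene lists. Chil3, Mmp9 and Ifitm6 are high in the positive-labelled array and in negative replicate 3, Cfp and Ets1 are high in negative replicates 1 and 2, and Srgn, Gusb and Cbfb stay near 0. Each row shows 1 probe set. The other probe set of Cfp, not shown, differed from the negative mean by 0.03.

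The genes most like the members over the 4 arrays were found by the Euclidean distance between log2 deviations. For the mean profile of the primary genes the nearest were Gpc1 (distance 0.27), Mmp9 (0.34), Chil3 (0.35), Ceacam10 (0.36), Trem3 (0.42) and Acss2 (0.51). Gpc1, a cell surface proteoglycan, was at 9.61 in the positive-labelled array, against 6.93, 7.27 and 9.43 in negative replicates 1, 2 and 3. For the late genes the nearest were Nup50 (0.02), Tmem237 (0.05), Hspa1a (0.05), Thtpa (0.07), Wipi1 (0.08) and Mrpl19 (0.09). Nup50, a nuclear pore protein, was at 10.46 in the positive-labelled array, against 9.56, 9.72 and 10.48 in the negative replicates. Likeness over 4 arrays is a description only.

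Markers of other blood and liver cells are given here by summed level, since several differed between the same arrays. In bulk samples fewer cells of a type and less RNA per cell cannot be told apart. Eosinophil markers (6 of 9) summed to a linear intensity of 5924 in the positive-labelled array. In negative replicates 1, 2 and 3 their sum was 244, 432 and 6178. Prg2, picked out after its values were seen, made up most of the step. It was at 4872 in the positive-labelled array and at 115, 62 and 5175 in negative replicates 1, 2 and 3. Of the 6 markers, 2 lay above the negative range in the positive-labelled array, 3 within it and 1 below. Among all genes 23.6% lay above it. Il5ra and Ccr3 differed from the negative mean by -0.14 and -0.22 log2 units. Monocyte markers (8 of 10) summed to 6494 in the positive-labelled array, against 4232, 3807 and 6360 in the negative replicates. Single monocyte markers did not all follow this sum, since 2 of the 8 lay above the negative range in the positive-labelled array, 3 within it and 3 below (Cx3cr1, Fcgr1 and Cd14), with a median difference of -0.03. F13a1, picked out after its values were seen, made up much of the step, at 2070 in the positive-labelled array and 178, 336 and 1934 in negative replicates 1, 2 and 3. Macrophage markers (12 of 12) summed to 5054 in the positive-labelled array, against 31621, 29792 and 4329 in negative replicates 1, 2 and 3. Of these 12, 0 lay above the negative range in the positive-labelled array, 6 within it and 6 below. Mast cell and basophil markers (8 of 9) summed to 1886 in the positive-labelled array, against 14573, 15064 and 2148 in the negative replicates. Of these 8, 4 lay within the negative range in the positive-labelled array and 4 below. Mcpt8, a basophil protease, did not follow the sum, at log2 7.55 in the positive-labelled array against 5.91, 6.24 and 7.78 in negative replicates 1, 2 and 3. Ms4a2 stayed within a range of 0.78 log2 units. B lineage markers (9 of 10) summed to 4082 in the positive-labelled array, against 23189, 23068 and 4070 in the negative replicates. Of these 9, 0 lay above the negative range in the positive-labelled array, 3 within it and 6 below. Erythroid markers (8 of 10) summed to 22008 in the positive-labelled array, against 16988, 17694 and 22112 in the negative replicates. Of these 8, 2 lay above the negative range, 6 within it and 0 below. Hepatoblast markers (8 of 10) summed to 2646 in the positive-labelled array, against 2374, 1785 and 2554 in the negative replicates. Of the 8 hepatoblast markers 2 lay above the negative range and 6 within it. LSK markers (8 of 10) summed to 13788 in the positive-labelled array, against 14037, 11918 and 13355 in the negative replicates. The primary members summed to 23609 in the positive-labelled array, against 7182, 7385 and 23253 in the negative replicates. The late members summed to 62434 in the positive-labelled array, against 38947, 41573 and 62024 in the negative replicates. No value in the table is at 0, and no detection calls were used here. The part of these cell types in the granule gene differences was not tested.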

How the data were processed

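RNA from 4 sorted cell samples was measured on Affymetrix arrays. Per the labels' protocols, 5 ng of total RNA was amplified and labelled with biotin as cDNA. Per the submitters' processing notes the authors used RMA, and the table they deposited holds linear intensities per probe set (4.27 to 27451), turned here into log2 values with no pseudocount. Its version is not given in the sources used here. RMA equalizes the arrays, which hides any difference in RNA content per cell.

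Of 45101 probe sets, 64 controls were set aside, 34945 carried 1 gene symbol, 932 several and 9160 none. Symbols were updated by gene ID through the RefSeq gene table (GRCm38.p6), which matched 34741. Each of 18193 genes was represented by its brightest probe set over the 4 arrays. Groups followed the sample titles. limma 3.58.1 (R 4.3.3, lmFit, eBayes, two-sided, Benjamini-Hochberg over all genes, threshold 0.05) compared positive with negative, with 2 residual degrees of freedom. Its code was also run on simulated data, which did not measure its power for the members. The number of arrays limits the precision.

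The members and the gene lists were chosen with earlier results of these data known. Named genes were all members, the 4 of each neutrophil gene list with the widest range over the arrays and the 2 with the narrowest among genes above the median level, and the 6 genes nearest to each class profile, predicted genes left out. Listed genes without a probe set of their own were not measured. Alternatives were cyclic loess, averaged probe sets, the probe set brightest in the negative arrays, a filter on level, trend and robust settings, and leaving out each negative replicate.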

Additional observations from a re-analysis of the deposited data

How the results depend on the processing

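No paired analysis was possible because the labelled groups share only 1 replicate number. limma called 0 genes under all 8 alternatives, with 385 to 1479 genes at an unadjusted p under 0.05. The 80 values of the 10 genes under these alternatives all kept their direction and stayed short of the threshold, with a lowest limma adjusted p of 0.266. Leaving out 1 negative replicate gave medians of 1.28 to 3.18 log2 units for the primary genes and 0.38 to 0.85 for the late genes, and a contrast of 0.91 to 1.85. With cyclic loess these were 2.12, 0.55 and 1.22. Since each member has 1 probe set and all are bright, the choice of probe set and the filter on level left their differences as they were. Chosen after seeing the data, class medians in place of means gave a contrast of 1.43, and leaving out each member in turn gave 1.09 to 1.54, the highest without Mpo. The scanner files were not analysed here, so background correction could not be varied, and signal over background is unknown.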

Other observations

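The genes that flank the members on the chromosome were read as a description. By the RefSeq gene table (GRCm38.p6), Prtn3 and Elane are neighbours, as are S100a8 and S100a9. Of 16 flanking protein-coding genes that are not members, 13 were measured. Their median range over the 4 arrays was 0.72 log2 units, beside 0.54 for all genes. A range of at least 1 was found in 3 of the 13, a share near that of all genes (24.8%). Mcpt8, a basophil protease next to Ctsg, was at 7.55 in the array labelled HES1-GFP positive, against 5.91, 6.24 and 7.78 in negative replicates 1, 2 and 3. As in Ctsg, the positive-labelled array and replicate 3 were above replicates 1 and 2, but replicate 3 was the highest and replicate 1 the lowest. Ccrl2, a chemoattractant receptor-like protein next to Ltf, was at 7.51 in the positive-labelled array, against 6.46, 7.60 and 7.44 in the negative replicates, where negative replicate 1 alone was low. Nme6, a kinase family member next to Camp, was at 9.19 in the positive-labelled array, against 8.88, 8.97 and 10.07 in the negative replicates, where replicate 3 alone stood high. Plppr3, on the other side of Prtn3 from Elane, stayed within a range of 0.04, at 8.05 in the positive-labelled array and 8.07, 8.09 and 8.07 in the negative replicates. Lpo, a peroxidase next to Mpo, was at 5.11 in the positive-labelled array, against 4.84, 4.93 and 5.11 in the negative replicates.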
